A study of Mus musculus with 16 samples.

Results

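The collagen genes of mouse liver were taken as all genes whose symbol is Col, a type number, the letter a and a chain number, which gave 44 of the 47719 genes with counts. They were split into 11 genes of fibrillar collagens, 6 genes of the basement membrane collagen (type IV) and 27 genes of other collagens. RNA was sequenced from livers of wild type C57BL/6 males of 2 ages, either untreated or at day 2 or day 6 after 1 intraperitoneal injection of diethylnitrosamine (DEN), a carcinogen that liver enzymes turn into an agent that damages DNA. The younger mice are called 1-month-old in the study and 3 to 4 weeks old in the sample labels, and the older mice were 6 months old. The DEN dose is 25 mg per kg of body weight in the labels, whereas the methods of the study write it per g. At each age there were 2 libraries of untreated controls, 3 of day 2 and 3 of day 6, that is 16 libraries in 6 groups. Each library held equal amounts of RNA of 3 mice, so a spread between libraries is one between pools. The labels give time point 0 for all controls and there is no untreated library labelled day 2 or day 6, so time after the start and DEN cannot be told apart.

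Collagens are proteins of 3 chains wound into a triple helix. Fibrillar collagens assemble into the fibres that give tissue its tensile strength, type IV collagen forms the sheet under epithelia and around vessels, and the other types link, coat or anchor these structures or sit in cell membranes. In the liver, most fibrillar collagen is made by stellate cells and portal fibroblasts, and its excess is the scar of fibrosis. Healthy liver has little of it, and the sinusoids lack the continuous basement membrane that capillaries of other organs have.

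RefSeq promoters of GRCm38.p6 were found for 35 of the 44 genes. The 250 bases before the start are given for 3 of them, which have an age difference described below and windows without an annotated exon. Col6a2, Col6a3, Col7a1, Col15a1 and Col23a1 also had such a difference and such a window and are not shown. Col3a1 was lower at 6 months (chr1:45311288-45311537, + strand), Col5a1 was lower too (chr2:27886175-27886424, + strand), and Col25a1 was higher (chr3:130180595-130180844, + strand, before a RefSeq start inside the longer gene annotated for the counts). Capitals mark CCAAT and TATAAA, searched on both strands.
Col3a1: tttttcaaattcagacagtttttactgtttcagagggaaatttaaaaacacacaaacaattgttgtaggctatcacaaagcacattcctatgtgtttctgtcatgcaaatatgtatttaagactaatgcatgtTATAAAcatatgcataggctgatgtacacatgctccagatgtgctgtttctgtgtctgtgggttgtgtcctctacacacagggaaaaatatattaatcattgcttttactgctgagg
Col5a1: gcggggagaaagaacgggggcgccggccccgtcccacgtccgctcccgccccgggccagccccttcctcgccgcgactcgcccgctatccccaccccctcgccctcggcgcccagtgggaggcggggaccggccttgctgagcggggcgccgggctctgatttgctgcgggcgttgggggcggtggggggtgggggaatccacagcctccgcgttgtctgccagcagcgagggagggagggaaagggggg
Col25a1: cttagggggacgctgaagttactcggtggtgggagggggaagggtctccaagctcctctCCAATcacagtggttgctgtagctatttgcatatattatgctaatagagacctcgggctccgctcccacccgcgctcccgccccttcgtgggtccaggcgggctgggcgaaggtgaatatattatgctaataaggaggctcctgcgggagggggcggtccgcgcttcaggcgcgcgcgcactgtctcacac
TATAAA began 117 bases before the start of Col3a1 and CCAAT began 191 bases before the start of Col25a1, and the Col5a1 window held neither. Of the windows named but not shown, that of Col7a1 held CCAAT and the others held neither. CCAAT was in the window of 13 of the 35 collagen genes and in 33.85% of 32851 promoters of all genes, and TATAAA was in 5 of 35 and in 12.37%. GGGCGG, searched in the same way, was in 21 of 35 and in 32.74%, and matches of different motifs were counted separately even where they share bases. A match is a run of letters and not a measured binding site.

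The abundance of the collagens was described first. Levels are given in CPM, a gene's counts relative to the size of its library after TMM scaling, which adjusts library sizes so that a few very abundant genes do not shift the others. Total counts per library were 19039330 to 34459774. Of the 44 genes, 32 had enough counts to be tested. The other 12 (Col2a1, Col6a4, Col6a5, Col9a1, Col9a2, Col10a1, Col11a1, Col17a1, Col19a1, Col22a1, Col26a1 and Col28a1) had at most 12 counts in a library and at most 85 over all 16. They include the main collagens of cartilage (Col2a1, Col9a1, Col11a1) and of the epidermal anchoring complex (Col17a1). Per exon length, Col18a1 was the most abundant collagen gene at both ages. Its product, type XVIII collagen, is a basement membrane proteoglycan that hepatocytes are known to make and from which endostatin is cut. Its level was 188 CPM per kb of exon at 1 month (range 113 to 268 over 8 libraries) and 131 CPM per kb at 6 months (range 104 to 142). In CPM it made up 65.4% to 70.3% of all collagen counts at 1 month and 66.3% to 78.5% at 6 months. The next genes at 1 month were Col3a1 (11.8 CPM per kb), Col4a1 (11.5 CPM per kb) and Col14a1 (10.3 CPM per kb), whose ranges over libraries overlapped. At 6 months the next genes were Col14a1 (8.70 CPM per kb), Col5a3 (8.16 CPM per kb) and Col4a1 (5.03 CPM per kb), and Col3a1 stood at 3.57 CPM per kb. Col1a1, the gene of the main chain of type I collagen, was the 7th gene at 1 month with 4.38 CPM per kb and the 10th at 6 months with 1.18 CPM per kb.

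**Figure D1:**
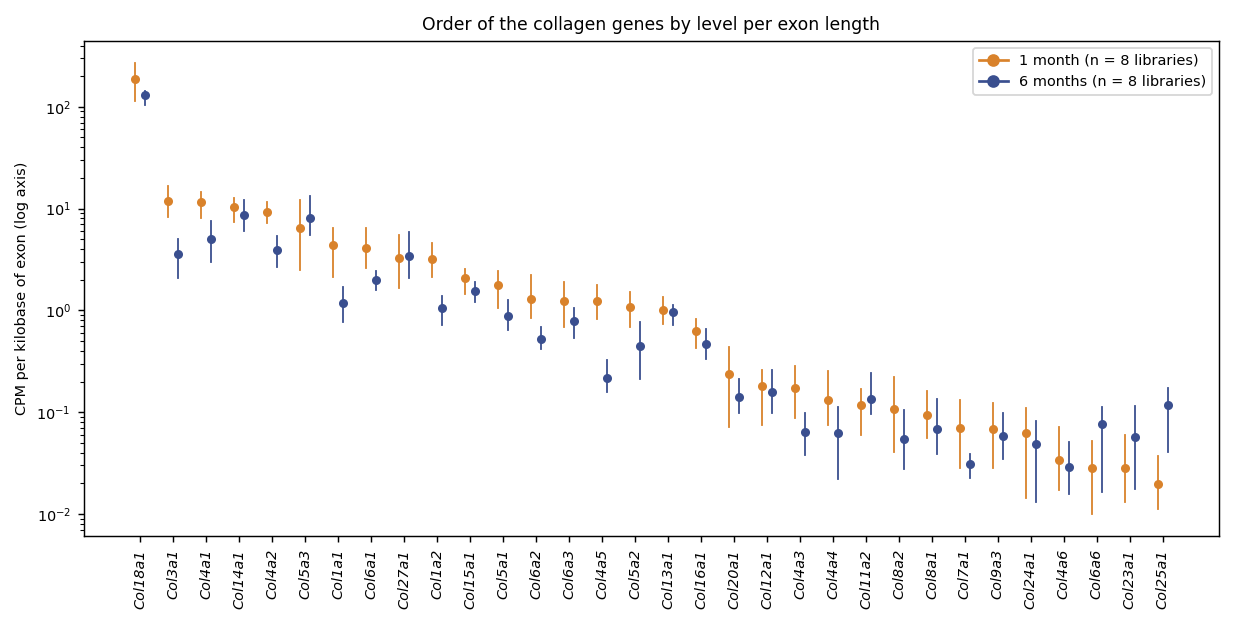
Level of the 32 collagen genes tested in CPM per kilobase of exon (vertical log axis), with the mean (points) and range (lines) of the 8 libraries of each age. Col18a1 stands apart at 188 and 131 CPM per kb, and the other genes lie at 11.8 CPM per kb or less.

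The first question was whether collagen expression differed between 1-month-old and 6-month-old livers. It was tested in controls, at day 2 and at day 6, which share no library, and as the average of these 3 differences. The average age difference was called for 20 of 32 genes at an adjusted p under 0.1, of which 17 were lower and 3 were higher at 6 months (quasi-likelihood test of edgeR, Benjamini-Hochberg over all 15684 genes tested). Over all genes tested, 10.5% were called lower and 12.0% higher. All 5 genes called among 9 fibrillar and all 5 called among 6 basement membrane genes were lower, whereas 17 other collagen genes held 7 lower and 3 higher. The median log2 fold change of the 32 genes was -0.62 (all genes -0.012). In controls, 8 collagen genes were called lower and 1 higher (all genes 1.03% and 1.56%), at day 2 there were 9 lower and 1 higher (2.58% and 3.25%), and at day 6 there were 6 lower and 1 higher (1.84% and 2.54%). The medians of the 32 genes in these comparisons were -0.77, -0.60 and -0.45. Of the 32 genes, 23 had a negative fold change in each comparison and 4 a positive one, whether called or not. The 6 genes Col1a1, Col1a2, Col3a1, Col4a2, Col4a5 and Col25a1 were called in each of the 3 comparisons. Of these, Col1a1, Col1a2, Col3a1 and Col4a2 each lost the call in controls without control replicate 2 of 1 month or without either control of 6 months (adjusted p 0.115 to 0.347), where 2 collagen genes were called in place of 9, and the call at day 6 without day 6 replicate 2 of 1 month (adjusted p 0.106 to 0.145). Without day 6 replicate 2 of 6 months Col1a1 and Col3a1 lost the call at day 6, and Col1a1 lost further calls without control replicate 1 or day 2 replicate 3 of 1 month and without day 2 replicate 1, day 2 replicate 2 or day 6 replicate 1 of 6 months (adjusted p 0.101 to 0.158 over these libraries). No single library left out ended a call of Col4a5 or Col25a1. All 8 libraries of 6 months lay below all 8 of 1 month for 8 collagen genes (1.71% of all genes tested) and above them for 1 (1.97%). DESeq2 called 20 collagen genes in the average and 13, 11 and 10 in controls, at day 2 and at day 6. Of all 15684 genes tested it called 3889 in the average and 746, 1479 and 1104 in these comparisons. In bulk tissue, fewer cells of a type and less RNA per cell cannot be told apart.

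**Figure D2:**
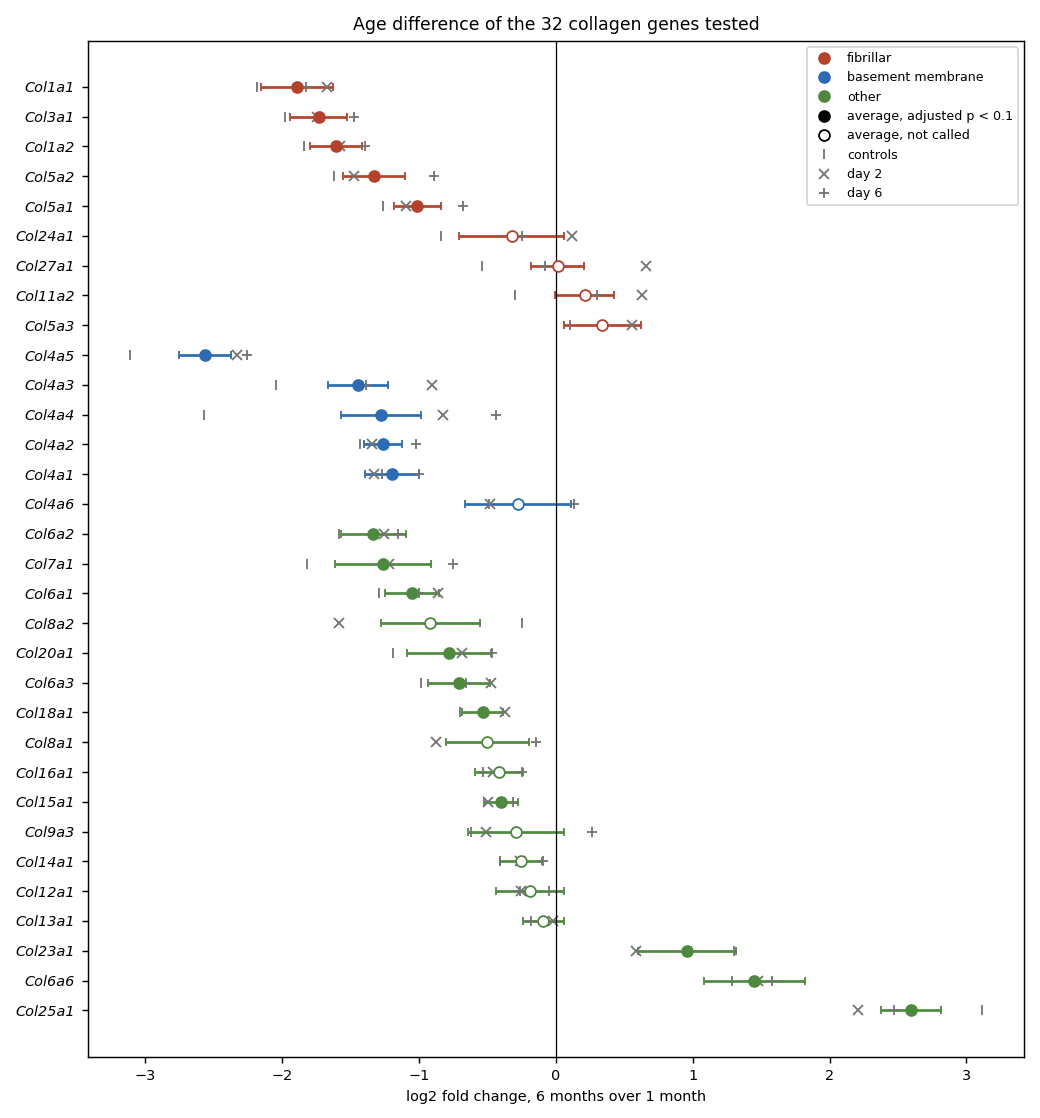
Log2 fold change of 6 months over 1 month (horizontal axis) of the 32 collagen genes, as the average over controls, day 2 and day 6 with its standard error (circles, filled where the adjusted p was under 0.1) and as the values of controls, day 2 and day 6 (grey marks). The 20 filled genes hold 17 to the left of 0 and 3 to the right, Col6a6, Col23a1 and Col25a1.

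A set of 3 libraries of 1-month-old mice stood apart in features other than collagen, control replicate 2, day 2 replicate 3 and day 6 replicate 2. Their share of counts from mitochondrial genes was 2.39%, 3.52% and 2.18%, the lowest of each group. The clock-controlled gene Dbp was at 1.87, 0.871 and 0.376 CPM in them. It was at 28.1 to 128 CPM in the other libraries of 1 month and at 6.24 to 80.3 CPM at 6 months. Collagens were high in them. They lay above every other library of their group for 25, 26 and 23 of the 32 genes, or 78.1%, 81.3% and 71.9%, against 51.0%, 32.0% and 38.1% of all genes tested. At 6 months, day 2 replicate 3 and day 6 replicate 3 had the lowest Dbp of their groups (6.24 and 14.3 CPM). Their collagen sums without Col18a1 were the highest of their groups (388 and 462 CPM). With Col18a1 counted, day 2 replicate 3 was not the highest (1249 CPM, against 1259 CPM in replicate 2). Both were kept in the fit without the 3 libraries of 1 month. Without these 3 libraries the average age difference was called for 15 collagen genes, 12 of them lower, and the comparison in controls, which then has 1 younger library and borrows its spread, for 5, that at day 2 for 5 and that at day 6 for 5.

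RNA of type I collagen was lower at 6 months. Collagen protein was not measured for this or any other type. Col1a1 (ENSMUSG00000001506, chromosome 11 of GRCm38 from 94936224 to 94953042) was at 33.9 and 42.2 CPM in controls of 1 month, at 18.2, 14.1 and 42.5 CPM at day 2 and at 17.6, 34.6 and 26.9 CPM at day 6. At 6 months it was at 7.52 and 9.19 CPM in controls, at 8.23, 5.30 and 9.82 CPM at day 2 and at 5.03, 5.95 and 11.1 CPM at day 6. The ages did not overlap, and the younger libraries spread more widely. The average difference for Col1a1 on the log2 scale was -1.89 (SE 0.26, adjusted p = 0.000361). Its partner chain Col1a2 (ENSMUSG00000029661, chromosome 6 from 4504814 to 4541544) lay between 26.4 and 56.6 CPM at 1 month with a median of 36.4 and between 8.85 and 17.3 CPM at 6 months with a median of 13.2 (log2 fold change -1.61, SE 0.19, adjusted p = 7.71e-05). In CPM the ratio of Col1a1 to Col1a2 was 0.534 to 0.875 at 1 month and 0.502 to 0.650 at 6 months, so the ranges of the ratio overlapped where those of the levels did not.

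RNA of type III collagen, whose protein forms thin fibres in vessel walls and in the reticulin of the liver, showed the same direction. Col3a1 (ENSMUSG00000026043, chromosome 1 from 45311538 to 45349706) was at 150.4 and 147 CPM in controls of 1 month, at 95.3, 81.8 and 162 CPM at day 2 and at 81.3, 117 and 91.2 CPM at day 6. At 6 months its level was 33.7 and 41.8 CPM in controls, 33.8, 20.5 and 46.8 CPM at day 2 and 24.3, 29.9 and 49.7 CPM at day 6. The lowest younger library was above the highest older one, and the mean of 8 libraries was 3.30 times as high at 1 month. The log2 fold change of Col3a1 was -1.73 (SE 0.21, adjusted p = 0.000109).

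Among the chains of type V collagen, which starts and limits the growth of fibrils, Col5a1 and Col5a2 were lower at 6 months and Col5a3 was not called. Col5a1 had 9.02 to 20.9 CPM (median 15.0) at 1 month against 5.45 to 10.6 CPM (median 7.51) at 6 months (log2 fold change -1.01, SE 0.17, adjusted p = 0.00126). Col5a2 went from a median of 9.68 CPM (6.57 to 14.5) to a median of 3.93 CPM (2.05 to 7.30) (log2 fold change -1.33, SE 0.23, adjusted p = 0.00148). For both genes the ages overlapped through the highest older library, day 6 replicate 3 of 6 months. Col5a3 had 17.0 to 83.6 CPM at 1 month and 37.7 to 90.8 CPM at 6 months (log2 fold change 0.34, SE 0.28, adjusted p = 0.464). The remaining fibrillar genes were also not called, with log2 fold changes of -0.32 for Col24a1, 0.01 for Col27a1 and 0.21 for Col11a2 and standard errors of 0.38, 0.19 and 0.21. Col27a1 was well expressed, at 21.4 to 71.1 CPM at 1 month and 27.0 to 77.1 CPM at 6 months.

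**Figure D3:**
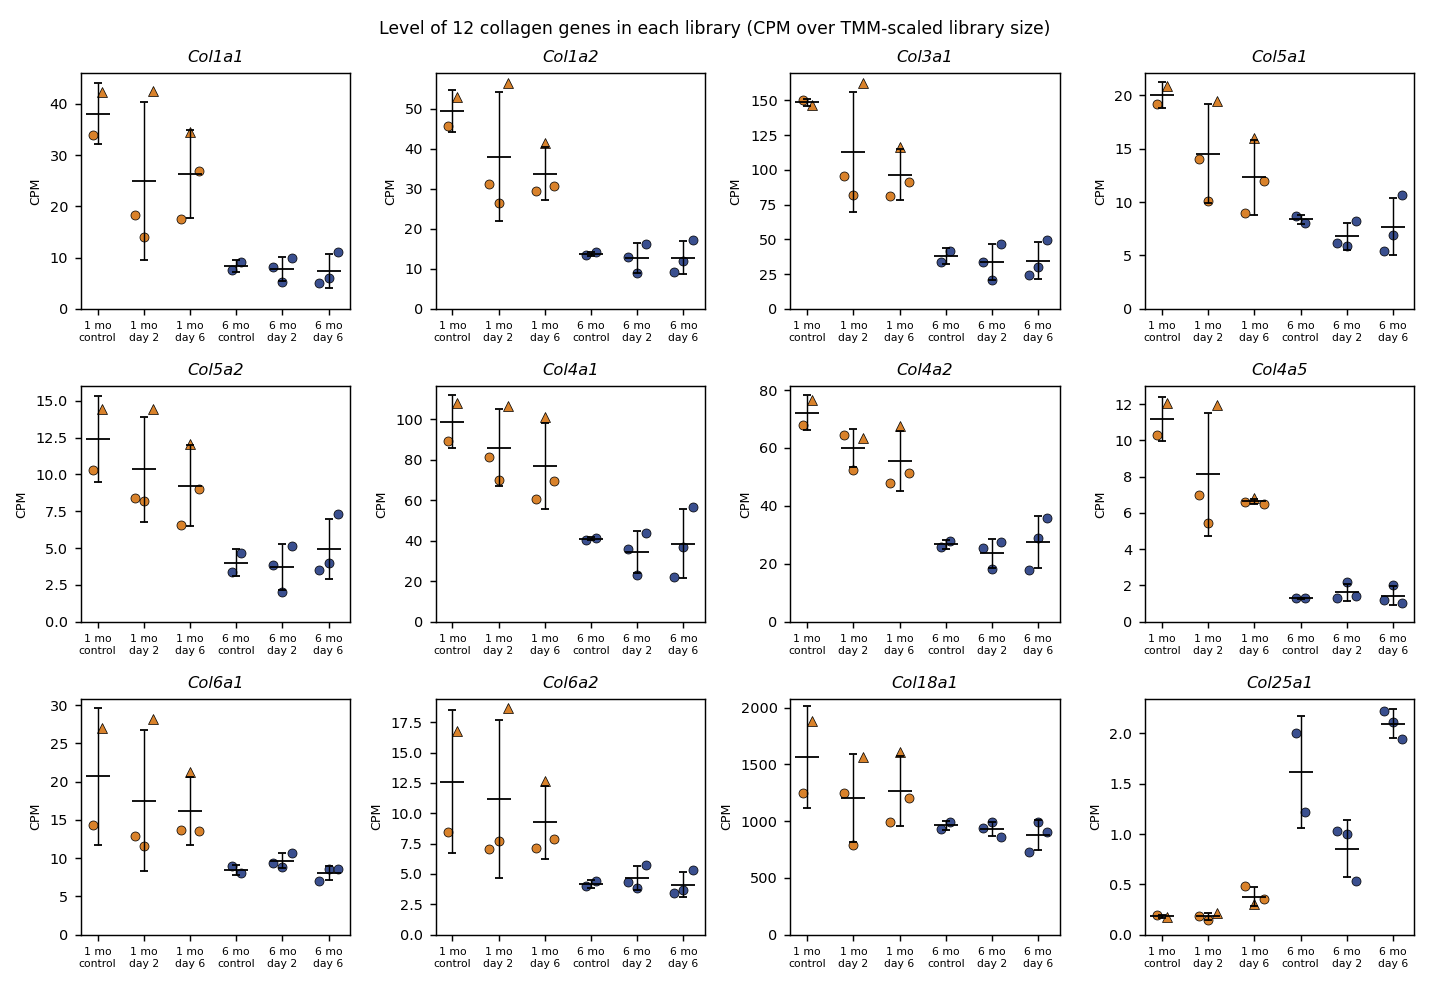
CPM of 12 collagen genes (vertical axes) in each library of the 6 groups, with the group mean and SD as bars, the 3 libraries that stand apart as triangles and the other libraries as circles. Col1a1, Col1a2, Col3a1, Col4a1, Col4a2, Col4a5, Col6a1 and Col6a2 are lower in every library of 6 months than in every library of 1 month, and Col25a1 is higher.

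The genes of type IV collagen lie as 3 head-to-head pairs, and 5 of the 6 were lower at 6 months. Col4a1 and Col4a2 encode the chains found in nearly every basement membrane. Their starts are 21 bases apart on chromosome 8 of GRCm38, on opposite strands, with their 5′ ends overlapping (Col4a1, ENSMUSG00000031502, from 11198423 to 11312826, and Col4a2, ENSMUSG00000031503, from 11312805 to 11449287). Col4a2 was at 67.9 and 76.6 CPM in controls of 1 month, at 64.4, 52.3 and 63.4 CPM at day 2 and at 48.0, 67.4 and 51.4 CPM at day 6. At 6 months it was at 25.6 and 27.8 CPM in controls, at 25.3, 18.0 and 27.5 CPM at day 2 and at 17.8, 28.8 and 35.7 CPM at day 6. No library of one age reached those of the other. The log2 fold change of Col4a2 was -1.27 (SE 0.14, adjusted p = 3.81e-05). Col4a1 had 60.7 to 108 CPM (median 85.3) at 1 month against 22.3 to 56.5 CPM (median 38.6) at 6 months (log2 fold change -1.20, SE 0.19, adjusted p = 0.00104). The ratio of Col4a1 to Col4a2 in CPM was 1.26 to 1.68 at 1 month and 1.25 to 1.59 at 6 months.

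Col4a5, on the X chromosome and known with Col4a3 and Col4a4 for the network of the kidney filter that fails in Alport syndrome, had the largest fall of the 32 genes. Col4a5 (ENSMUSG00000031274, from 141475385 to 141689234) was at 10.3 and 12.1 CPM in controls of 1 month, at 6.99, 5.47 and 11.9 CPM at day 2 and at 6.62, 6.80 and 6.49 CPM at day 6. At 6 months all 8 libraries lay between 1.05 and 2.17 CPM. The mean was 5.69 times as high at 1 month, and the log2 fold change was -2.56 (SE 0.19, adjusted p = 8.82e-07). Its neighbour Col4a6, whose start lies 1309 bases away, was at or below 0.566 CPM in every library and was not called (log2 fold change -0.28, SE 0.39). Col4a3 fell from a median of 1.53 CPM (0.875 to 2.84) to 0.630 CPM (0.377 to 0.970) and Col4a4 from 1.29 CPM (0.786 to 2.68) to 0.608 CPM (0.233 to 1.19). The log2 fold change was -1.45 (SE 0.22) for Col4a3 and -1.28 (SE 0.29) for Col4a4, with adjusted p of 0.000552 and 0.00888. For both genes the ages overlapped. A transcript on the other strand, C430014B12Rik, overlaps Col4a3 with 503 counts over all libraries against 493 of Col4a3, and without the strand setting their reads cannot be told apart.

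RNA of type VI collagen, whose protein forms the beaded filaments around cells, was lower for its common chains. Col6a1 had 11.5 to 28.2 CPM at 1 month against 7.02 to 10.7 CPM (median 8.76) at 6 months (log2 fold change -1.05, SE 0.20, adjusted p = 0.00280). Col6a2 ranged from 7.08 to 18.6 CPM (median 8.17) and from 3.45 to 5.78 CPM (median 4.16) (log2 fold change -1.33, SE 0.24, adjusted p = 0.00179). Neither gene's ages overlapped. Without the 3 libraries that stand apart the values were -0.63 for Col6a1 and -0.85 for Col6a2, with adjusted p of 0.00218 and 0.00392 from the same test. Col6a3 had a log2 fold change of -0.71 (SE 0.23, adjusted p = 0.0499), and its levels overlapped, at 8.13 to 22.7 CPM and 6.35 to 12.7 CPM. Without the 3 libraries its value was -0.35 (adjusted p = 0.221), and it was also lost without 1-month control replicate 2 (-0.62) or 6-month control replicate 2 (-0.65). Col6a6, a chain related to Col6a3, was higher at 6 months, at 0.151 to 1.02 CPM (median 0.761) against 0.0920 to 0.479 CPM (median 0.234) (log2 fold change 1.45, SE 0.37, adjusted p = 0.0156).

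RNA of both multiplexins, the proteoglycan collagens of basement membrane zones, was lower at 6 months by less. Col18a1 (ENSMUSG00000001435, chromosome 10 from 77052178 to 77166548) was at 1249 and 1882 CPM in controls of 1 month, at 1251, 793 and 1566.5 CPM at day 2 and at 993, 1606 and 1202 CPM at day 6. At 6 months it was at 935 and 992 CPM in controls, at 937, 988 and 862 CPM at day 2 and at 729, 994 and 908 CPM at day 6. The older libraries were close to each other, with a mean of 918 ± 89.3 CPM (SD, n = 8), and the younger ones overlapped them at 1318 ± 352 CPM (SD, n = 8). The log2 fold change of Col18a1 was -0.53 (SE 0.15, adjusted p = 0.0250), and without the 3 libraries that stand apart it was -0.29 (adjusted p = 0.156). Col15a1 had 9.21 to 16.2 CPM at 1 month and 7.70 to 12.0 CPM at 6 months (log2 fold change -0.40, SE 0.13, adjusted p = 0.0424). It was -0.34 (adjusted p = 0.123) without the 3 libraries and -0.39 (adjusted p = 0.105) without 6-month control replicate 2.

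Col25a1, a transmembrane collagen known mainly from neurons and as a part of amyloid plaques, rose with age. Col25a1 (ENSMUSG00000058897, chromosome 3 from 130131501 to 130599877) was at 0.192 and 0.170 CPM in controls of 1 month, at 0.184, 0.146 and 0.218 CPM at day 2 and at 0.480, 0.301 and 0.354 CPM at day 6. At 6 months its level was 2.01 and 1.22 CPM in controls, 1.03, 1.00 and 0.531 CPM at day 2 and 2.23, 2.12 and 1.94 CPM at day 6. Its level was low at both ages, and the highest younger library was just below the lowest older one. The log2 fold change was 2.60 (SE 0.22, adjusted p = 2.77e-06). Col23a1, another transmembrane collagen, had 0.0752 to 0.340 CPM at 1 month and 0.101 to 0.654 CPM at 6 months, and its log2 fold change of 0.96 (SE 0.36, adjusted p = 0.0833) lost its call in 15 of 21 alternative fits, with adjusted p up to 0.174. Col7a1, the anchoring fibril of skin, was at 0.288 to 1.36 CPM at 1 month and 0.232 to 0.404 CPM at 6 months (log2 fold change -1.26, SE 0.35, adjusted p = 0.0236). The value for Col7a1 was -0.53 (adjusted p = 0.219) without the 3 libraries and -0.96 (adjusted p = 0.111) without 1-month control replicate 2. Col20a1 had a log2 fold change of -0.78 (SE 0.30, adjusted p = 0.0994), lost its call in 13 of 21 alternative fits and shares its locus with 9230112E08Rik on the same strand, which had 1212 counts against its 413.

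Of the collagens that bind to the surface of fibrils (FACIT), Col14a1 was among the most abundant collagen genes and was not called. It was at 51.7 to 89.5 CPM (median 71.7) at 1 month and at 42.4 to 84.3 CPM (median 56.3) at 6 months (log2 fold change -0.25, SE 0.16, adjusted p = 0.305). Col12a1, Col16a1 and Col9a3 were not called either, with log2 fold changes of -0.19, -0.41 and -0.29. Neither were the transmembrane gene Col13a1 (-0.09) and the network-forming genes Col8a1 (-0.50) and Col8a2 (-0.92, adjusted p = 0.103).

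The collagens also varied together among libraries of the same group. After the mean of each group was taken from the log2 CPM, Pearson's r over the 16 libraries was 0.96 for Col1a1 with Col1a2, 0.97 for Col1a2 with Col3a1, 0.96 for Col4a1 with Col4a2 and 0.94 for Col6a1 with Col6a2. These are descriptions, since the libraries share depth, scaling and the 3 that stand apart. Col3a1 and its neighbour Col5a2, which lie tail to tail with 24614 bases between them, had 0.95. Of the other head-to-head pairs, Col4a3 and Col4a4, 72 bases apart, had -0.27, and Col4a5 and Col4a6, 1309 bases apart, had 0.52. Col4a3, Col4a4 and Col4a6 had at most 75, 79 and 13 counts in a library, and the part of position was not tested. Against the mean of Col1a1, Col1a2 and Col3a1, r was 0.95 for Col5a2, 0.91 for Col4a1, 0.91 for Col5a1 and 0.91 for Col6a3, but 0.13 for Col4a5, -0.34 for Col25a1 and -0.44 for Col27a1. The 10 other genes most like that mean were Fbn1 (0.96), Armc6 (0.95), Gm20412 (0.95), Adamts9 (0.94), Vcan (0.94), Adamts2 (0.94), AW011738 (0.92), Tgm2 (0.92), Inpp5j (0.92) and Gm830 (0.91). Among them, Fbn1 encodes fibrillin, Vcan the matrix proteoglycan versican and Adamts2 the enzyme that trims fibrillar procollagens. Vcan, Inpp5j and Gm830 were at low levels, with mean log2 CPM of -1.30, -2.64 and -1.19. A shared function of the 10 genes was not tested.

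The next question was whether DEN changed collagen expression. No collagen gene was called at day 2 or day 6 against controls at either age (quasi-likelihood test of edgeR), and DESeq2 called 0 as well. Over all genes tested DESeq2 called 91 and 19 genes at days 2 and 6 at 1 month and 119 and 85 at 6 months. By edgeR 0.0128% and 0% of all genes were called at 1 month and 0.319% and 0.230% at 6 months, so edgeR made few calls among any genes. An unadjusted p under 0.05 was found for 2 and 4 of the 32 collagen genes at 1 month (1105 and 417 of all genes) and for 2 and 3 at 6 months (620 and 458). At 1 month the median log2 fold change of the 32 genes was -0.38 at day 2 and -0.43 at day 6, and 27 and 29 of them were negative. At 6 months the medians were -0.12 and -0.06, with 22 and 18 negative. The medians over all genes were -0.011, -0.010, -0.0043 and -0.0020. Both days of an age were set against the same controls, of which 1-month replicate 2 is one of the libraries that stand apart.

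Col1a1 had a log2 fold change of -0.61 (SE 0.44) at day 2 and -0.53 (0.44) at day 6 at 1 month, and of -0.10 (0.46) and -0.17 (0.46) at 6 months. Col3a1 had -0.39 (0.36) and -0.62 (0.36) at 1 month and -0.16 (0.36) and -0.12 (0.36) at 6 months. For both genes the values at 6 months were smaller than their errors, and each of the values at 1 month was less than 2 times its error. For Col4a5 the values were -0.46 (0.31) and -0.75 (0.31) at 1 month and 0.32 (0.36) and 0.10 (0.36) at 6 months. The smallest unadjusted p at 1 month was that of Col4a3 at day 6 (log2 fold change -1.02, SE 0.36, adjusted p = 1), and at 6 months that of Col25a1 at day 2 (-0.90, SE 0.32, adjusted p = 0.874), both by the test of edgeR. By overlap, 0 collagen genes had all day 2 libraries above and 4 all below the controls at 1 month (all genes 7.96% and 8.77%), and at day 6 these were 1 and 8 (7.09% and 7.26%). At 6 months there were 2 above and 4 below at day 2 (10.8% and 11.1%) and 3 above and 1 below at day 6 (9.53% and 9.97%).

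**Figure D4:**
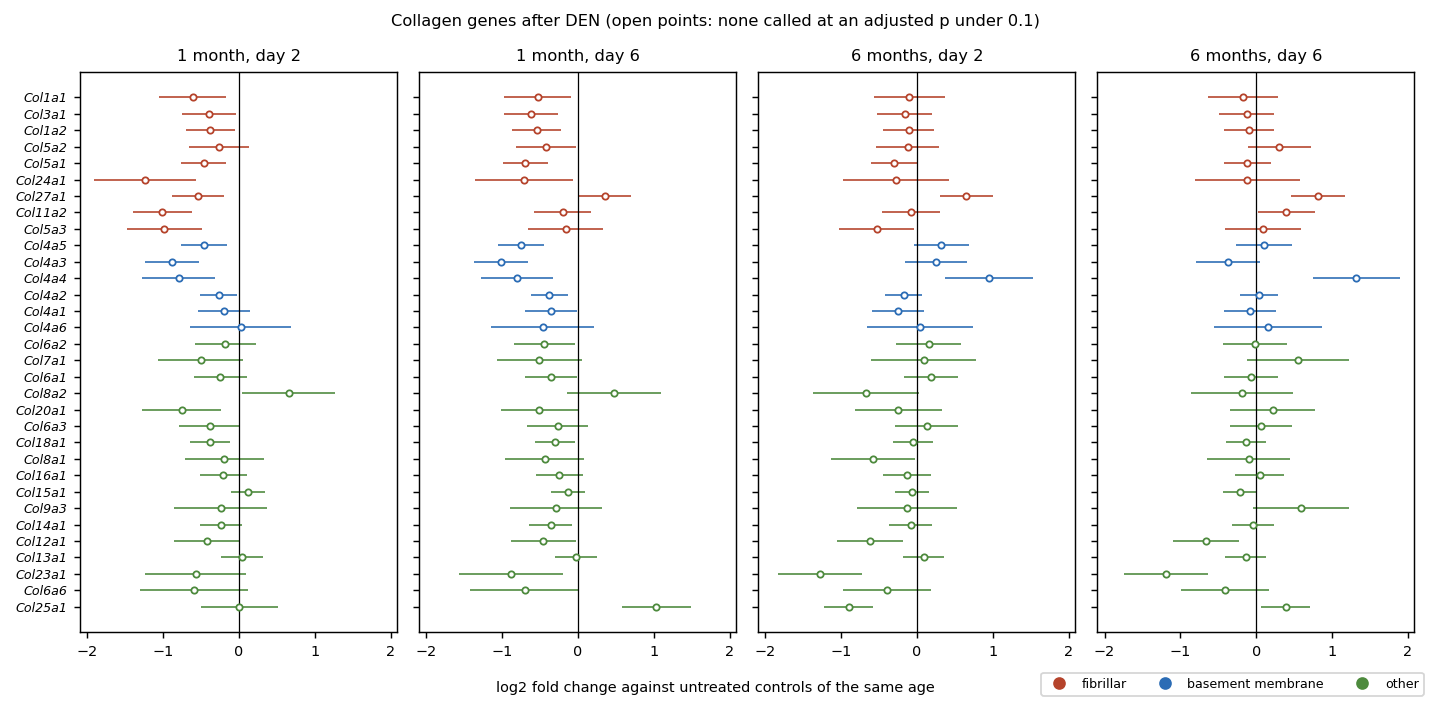
Log2 fold change against untreated controls of the same age (horizontal axes, with standard errors) of the 32 collagen genes at days 2 and 6 after DEN. At 1 month 27 and 29 of the genes lie to the left of 0 and at 6 months 22 and 18, and none was called.

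Day 6 was also compared with day 2, and the response to DEN with that of the other age. No collagen gene was called between the days at 1 month or at 6 months (all genes 0.00638% and 0.0128% by edgeR). DESeq2 called 0 as well (31 and 3 of all genes), and the unadjusted p of edgeR was under 0.05 for 3 and 1 (776 and 258 of all genes). The smallest p was that of Col25a1 between the days at 6 months (log2 fold change 1.29, SE 0.29, adjusted p = 1 by edgeR). Its 3 libraries of day 6 lay above its 3 libraries of day 2. For the difference in response between the ages, edgeR called no collagen gene at day 2 (all genes 0.00638%) or at day 6 (0.0128%). DESeq2 called 0 as well (9 and 11 of all genes), and the unadjusted p of edgeR was under 0.05 for 2 and 1 (689 and 295 of all genes). The smallest p of these was that of Col4a4 at day 6 (2.13 on the log2 scale, SE 0.74, adjusted p = 1.00), a gene at or below 2.68 CPM.

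Genes that make, cut or bind collagen were then set beside the collagens, with the average age difference. Of 32 genes tested for collagen biosynthesis and secretion, 14 were lower at 6 months and 0 higher (all genes 10.5% and 12.0%), with a median log2 fold change of -0.33. The genes with the smallest p were Plod3, a lysyl hydroxylase and glycosyltransferase (-0.44, SE 0.07), Adamts2, which removes the N-terminal propeptide (-0.99, 0.17), Loxl2, which cross-links collagen (-0.95, 0.18), and Crtap of the prolyl 3-hydroxylation complex (-0.56, 0.11), with adjusted p of 0.00101, 0.00147, 0.00296 and 0.00324 by edgeR. Adamts2 had 5.71 to 12.3 CPM at 1 month against 3.38 to 5.98 CPM at 6 months, so that the ages overlapped by little. P4hb, the abundant subunit of prolyl 4-hydroxylase with wider roles in protein folding, was at 1413 to 2327 CPM and was not called (-0.18, SE 0.11). Lox was not called either, with -1.18 and a standard error of 0.57. In controls alone 3 genes of this list were lower and 0 higher, at day 2 there were 2 and 0, and at day 6 there were 2 and 0.

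Of 14 genes tested for collagen breakdown and its inhibitors, 3 were lower and 1 higher (all genes 10.5% and 12.0%). Mmp2, the gelatinase that cuts denatured collagen and type IV collagen, was lower, with 4.94 to 13.1 CPM at 1 month and 2.19 to 6.14 CPM at 6 months (log2 fold change -1.15, SE 0.19, adjusted p = 0.000965). Pepd, a dipeptidase for proline peptides, and Ctsl were lower too, with log2 fold changes of -0.27 and -0.38. Mmp13, the rodent interstitial collagenase, was the higher gene at a log2 fold change of 1.98 (SE 0.72, adjusted p = 0.0774), with at most 2.11 CPM in a library. The inhibitors Timp1, Timp2 and Timp3 were not called (0.09, 0.04 and -0.17). Of 6 collagen receptors tested, Lair1, an inhibitory receptor of immune cells, was higher (0.80, SE 0.17) and Itga1, the integrin chain for type IV collagen, lower (-0.29, SE 0.10), with adjusted p of 0.00472 and 0.0587.

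Among 34 other matrix proteins 15 were lower and 2 higher (all genes 10.5% and 12.0%), with a median of -0.27. Sparc, which binds collagen and is needed for its assembly into fibrils and basement membranes, had 111 to 186 CPM at 1 month and 35.0 to 59.6 CPM at 6 months and a log2 fold change of -1.64 (SE 0.11, adjusted p = 4.74e-07). Eln, the elastic fibre protein, went from a median of 9.91 CPM (2.93 to 28.1) to 1.35 CPM (0.747 to 2.26) (log2 fold change -3.27, SE 0.47, adjusted p = 0.000587). Both genes lay lower in every older library. Postn (-1.18, SE 0.12) and the laminin chain Lamc1 (-0.57, SE 0.10) followed, and the higher genes were Dcn (0.35) and Tnc (0.67). Of 20 genes of TGF-beta and PDGF signaling, which drives collagen expression in stellate cells, 6 were higher and 1 lower (all genes 12.0% and 10.5%), with a median of 0.17. Pdgfb (1.35, SE 0.22), Smad3 (0.44, 0.09) and Pdgfa (0.51, 0.13) were higher and Ltbp4 (-0.58, 0.09) lower, with adjusted p of 0.00107, 0.00410, 0.0150 and 0.000641. This list thus had its called genes mostly in the opposite direction to the collagens, and Tgfb1 was not called (0.29, SE 0.16).

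**Figure D5:**
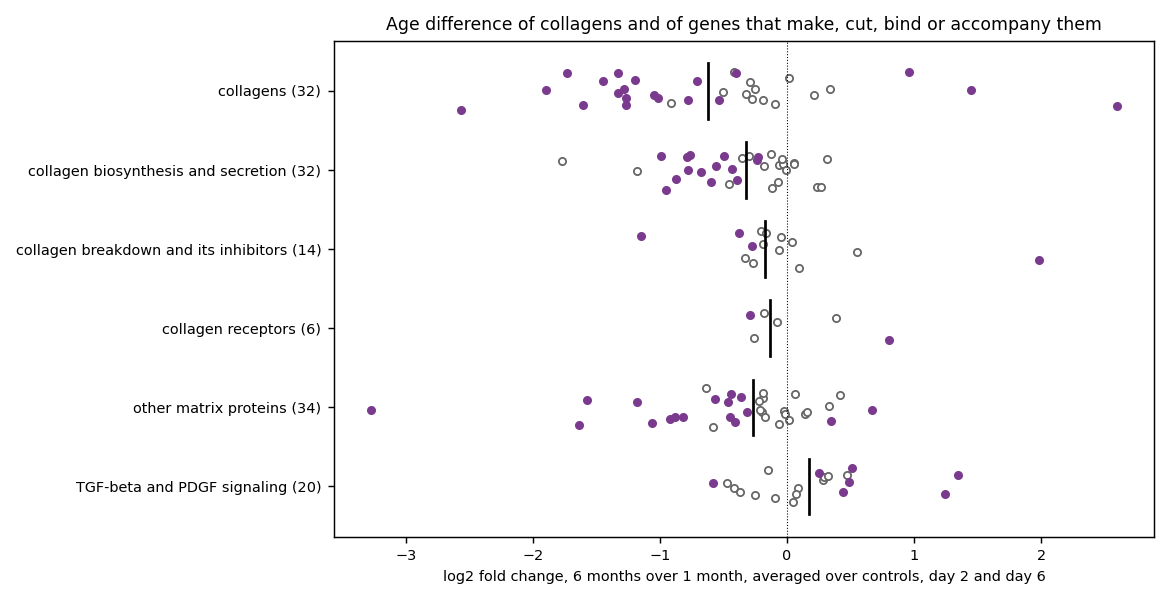
Log2 fold change of 6 months over 1 month, averaged over controls, day 2 and day 6 (horizontal axis), of the collagens and of genes of 5 lists (number tested in brackets), with each list's median as a bar and called genes filled. The medians lie at -0.62 for collagens, -0.33 for biosynthesis and secretion, -0.18 for breakdown, -0.13 for receptors, -0.27 for other matrix proteins and 0.17 for TGF-beta and PDGF signaling.

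Markers of the cell types that the liver samples could hold were measured beside the collagens. Their calls are those of the average age difference, for which 10.5% of all genes were called lower and 12.0% higher. The 6 hepatocyte markers, among them Apoa1, Ttr and Cps1, summed to 23740 to 37457.5 CPM at 1 month and 25778 to 29824 CPM at 6 months, and of them Ttr (-0.39, SE 0.11, adjusted p = 0.0257) and Apoa1 (-0.35, SE 0.13, adjusted p = 0.0759) were lower and 0 higher at 6 months. Bglap of bone and Krt5 of epidermis had 0 counts in all. Of 12 stellate cell markers without collagens, 4 were higher at 6 months, and their summed level was 224 to 306 CPM at 1 month and 225 to 322 CPM at 6 months. All 8 markers of sinusoidal endothelium had negative values, 5 of them called, with sums of 284 to 455 CPM and 206 to 341 CPM. Of 6 portal fibroblast markers tested, 4 were lower (one of them Eln, counted above too) and 1 (Thy1) higher, with sums over the 7 listed of 16.2 to 45.8 CPM and 10.6 to 14.9 CPM. Of 5 mesothelial markers 4 were lower, with a median of -1.66 and sums of 6.35 to 41.6 CPM and 2.93 to 11.6 CPM. In controls, at day 2 and at day 6 alone, 0 of these 5 were called, with medians of -2.75, -1.17 and -0.76. Marker calls without the 3 libraries that stand apart are not given. In the 3 libraries that stand apart the mesothelial sum was 41.6, 34.7 and 27.6 CPM and the portal fibroblast sum 45.8, 42.9 and 34.7 CPM, the highest of each group. The hepatocyte sum was also the highest of each group in them, at 37457.5, 37136 and 36254 CPM. The sums of sinusoidal endothelium (357, 306 and 284 CPM) and of macrophages (305, 318 and 313 CPM) were the lowest of each group. Of 4 myofibroblast markers tested Myl9 was lower, of 7 cholangiocyte markers Krt19 was lower, and of 6 macrophage markers 4 were higher. Markers of striated muscle, of cartilage and bone and of skin summed to at most 1.70, 3.61 and 2.63 CPM in a library. Only 1 of 5, 1 of 6 and 2 of 5 of them had enough counts to be tested, and none of those tested was called. None of the markers of the liver cell types was at 0 in all libraries. The part of these cell types in the collagen differences was not tested.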

How the data were processed

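Total RNA of livers was made into libraries (Illumina TruSeq kit) and sequenced (NextSeq 500), and each library pooled 3 mice. The authors trimmed reads (cutadapt) and aligned them with TopHat2 2.0.13 to GRCm38 with Ensembl 84, and deposited raw read counts per gene. Counting (program and strand setting not given in the sources used here) preceded deposition. The deposited table also holds 16 normalized columns, which were not used, and 10 genes without counts were left out. Whether the pools of a group were separate mice is not stated, so p-values measure the spread between pools.

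Counts were tested with edgeR 4.0.16 in R 4.3.3 (filterByExpr, TMM, robust quasi-likelihood fit of 6 groups, threshold 0.1 on the adjusted p). DESeq2 1.42.0 was an alternative. Total counts were 19039330 to 34459774 per library (median 26125036.5), with 15684 genes tested and a common biological coefficient of variation of 0.218. Fold changes used a prior count of 0.125. Exon lengths came from GENCODE M21. Each collagen gene was accounted for, with values for those called and for the main chains of each type. From related lists, up to 4 genes with the smallest p among those called were named, and P4hb, Lox, Timp1, Timp2, Timp3, Dcn, Tnc, Tgfb1, Dbp and single cell markers were named after their values were seen.

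The members and lists were chosen with earlier results of these data known. The result for 1 stellate cell marker is not reported here. The test was tried on simulated data.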

Additional observations from a re-analysis of the deposited data

How the results depend on the processing

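Of the 46 age differences called for single collagen genes, no sign changed in 992 alternative values, of which 873 kept the call and 119 lost it. Leaving out 1 library at a time gave 2 to 12 collagen genes called in controls, 5 to 14 at day 2, 2 to 9 at day 6 and 16 to 21 in the average, and 0 in each comparison of DEN, days or response. The lowest counts came without control replicate 2 of 1 month or either control of 6 months (2 in controls each), without day 2 replicate 3 of 1 month (5 at day 2) and without day 6 replicate 2 of 1 month (2 at day 6), and without day 2 replicate 1 or 2 of 6 months 6 were called at day 2, and without day 6 replicate 2 of 6 months 4 at day 6. Without the 3 libraries that stand apart, 5 genes were called in controls, 5 at day 2, 5 at day 6 and 15 in the average. Without a filter on low counts, 6 were called at day 2, against 10 with it. The causes of these changes were not tested. DESeq2 size factors moved 0 of 64 mean levels by more than the spread between libraries. With the replicate number as a replicate block, 12, 10, 10 and 19 collagen genes were called in controls, at day 2, at day 6 and in the average. Samples of the same number correlated at -0.302 to 0.588 in their deviations, so the numbers were not taken as pairs. The highest values, 0.544 and 0.588, were those of controls with day 6 at 1 month, where replicate 2 of both groups stands apart. The block result of that comparison is not given here. Between day 2 and day 6 at 6 months, where the 3 values were 0.233 to 0.493, the block called 0 collagen genes as well. Depth limits the 12 untested genes, which had too few counts for the test, and the genes below 1 CPM.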
